A study of Saccharomyces cerevisiae with 13 samples.

Results

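The genes described here are 10 genes of budding yeast (Saccharomyces cerevisiae) that encode kinesins and other microtubule-binding proteins, chosen by their open reading frame IDs from 6205 measured open reading frames. They are CIN8 (YEL061C), KIP1 (YBL063W), KIP2 (YPL155C), KIP3 (YGL216W), KAR3 (YPR141C), CIK1 (YMR198W), VIK1 (YPL253C), STU2 (YLR045C), ASE1 (YOR058C) and BIM1 (YER016W). All 10 had a value on every array and none at the limit of the deposited scale, so all 10 entered the tests. The cells had been held in G1 with alpha factor, released into YEPD, a rich medium, and sampled every 10 min from 0 to 120 min, which the design text describes as 2 cell cycles. RNA of each of the 13 time points was labelled with Cy5 and hybridised with Cy3-labelled RNA of an asynchronous culture grown in the same medium. No source used here gives the strain or its mating type.

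The mitotic spindle of budding yeast is built from microtubules that grow out of spindle pole bodies, which are duplicated and then separated inside an intact nucleus. Plus-end-directed motors slide overlapping microtubules and push the poles apart, the minus-end-directed motor Kar3 pulls in the opposite sense, and proteins at the microtubule tips set growth, shrinkage and the position of the spindle at the bud neck. During mating, Kar3 with its partner Cik1 also acts on the cytoplasmic microtubules that draw the parental nuclei together.

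Each time point has 1 array and no replicate, and the number of arrays limits the precision. Errors below are standard errors (SE) from the residuals around a fitted curve. The sample titles carry a file stamp of unstated meaning, with 1 stamp on the 4 arrays up to 30 min (set A) and another on the 9 arrays that follow (set B), so the set follows time and cannot be told apart from the early part of the course. The values are log2 ratios of the time point over the asynchronous culture. That direction is not stated with the values and is the likely one: FUS1, a gene of cell fusion induced by pheromone, stood at 3.23 log2 at 0 min and at -0.88 at 10 min. Array medians ran from -0.01 to 0.02 log2 and array SDs from 0.31 to 0.63 log2, widest at 10 min. A ratio compares a gene with the asynchronous culture, so levels of different genes are not set against each other.

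As a group, by their median, the 10 genes were low at 0 and 10 min, high at 20 to 40 min, low again at 70 min and high again at 90 and 100 min, with exceptions. KIP2 and ASE1 were still below 0 at 20 and 30 min, and KAR3 and CIK1 were highest at 0 min. At 10 min only 2 of the 10 genes, KAR3 and BIM1, had a ratio above 0, and the median of the 10 was -0.41 log2. The median was 0.24 at 20 min, 0.42 at 30 min and 0.47 at 40 min, when 9 of the 10 lay above 0. It was -0.11 at 70 min, with 2 of 10 above 0, then 0.42 at 90 min and 0.30 at 100 min, when all 10 lay above 0. Between 10 and 60 min, 8 of the 10 genes were highest at 30 or 40 min, and the same 8 were highest at 90 or 100 min among the later arrays. The other 2, KIP2 and ASE1, were highest at 50 min, and in the later arrays at 100 and 120 min. The share of all genes with highs at these times was not counted, so these counts describe the 10 genes only.

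**Figure D1:**
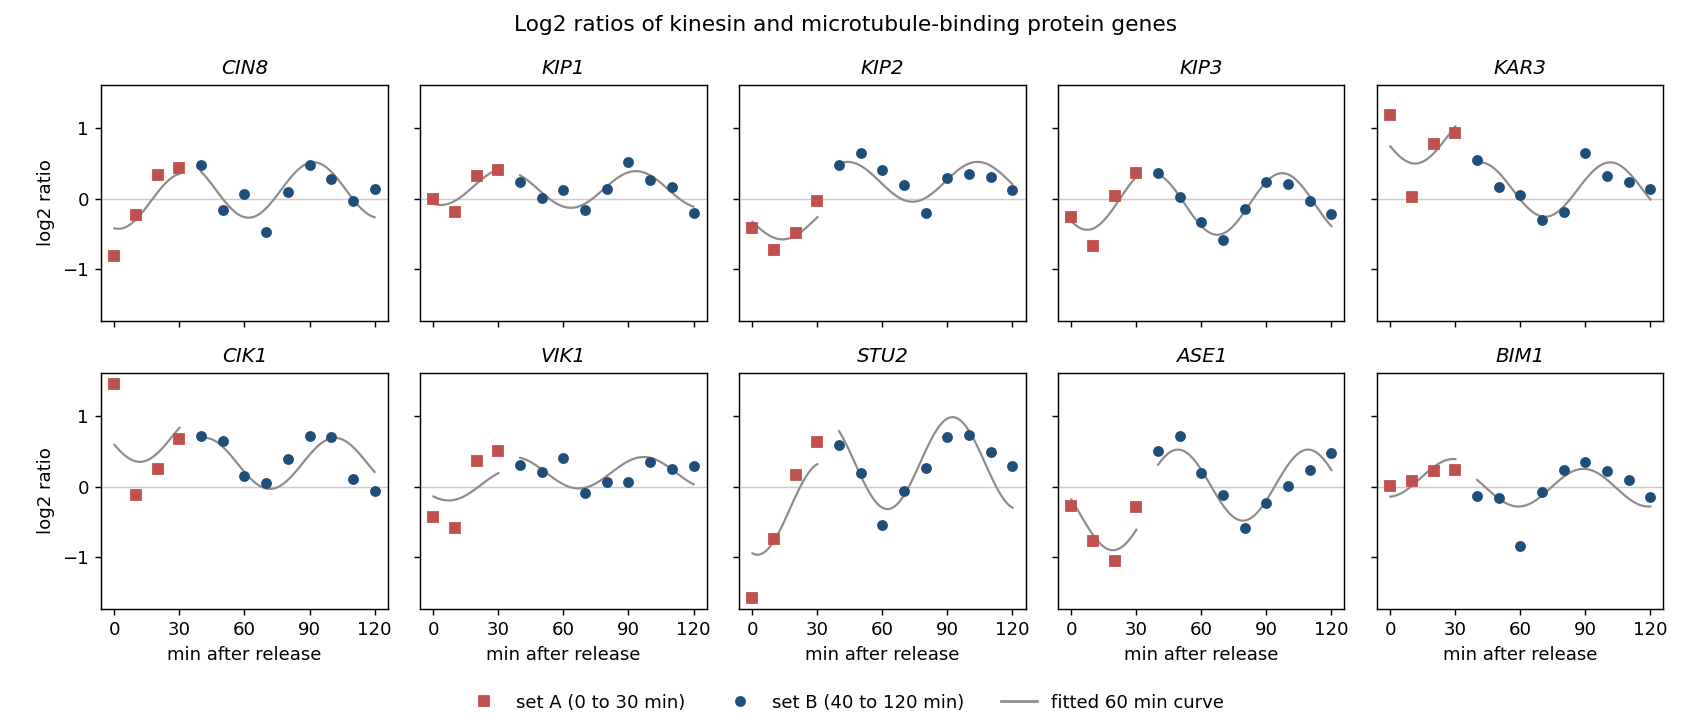
Log2 ratio of time point over asynchronous culture (vertical axis) against min after release (horizontal axis) for each of the 10 genes, with squares for set A, circles for set B and the fitted 60 min curve in grey, which steps between the sets. Most panels rise to a high at 30 or 40 min and again at 90 or 100 min, while KIP2 and ASE1 are highest at 50 min and CIK1 and KAR3 start with their highest value at 0 min.

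The size of these swings was moderate. From 10 to 120 min the difference between the highest and the lowest array ran from 0.71 log2 in KIP1 to 1.77 in ASE1. The same range had a median of 0.65 log2 over all 5871 genes with a value on every array, and 10% of those genes exceeded 1.39. Among those genes the 10 genes lay between the 58.1th and the 94.4th percentile.

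To ask which of them followed the cell cycle, a cosine and sine of 60 min were fitted to every gene with the array set as a covariate (limma, moderated F test, Benjamini-Hochberg adjustment over 6183 genes). Periodic expression was called for 4 of the 10 genes, KIP3, ASE1, STU2 and KIP1, where 5.47% of all genes tested were called. At an unadjusted p under 0.05 there were 8 of 10, against 21.2% of all genes. The median fitted peak-to-trough size was 0.75 log2 in the 10 genes and 0.25 log2 over all genes tested. The calls depend on the period: at 65 min CIN8 passed and KIP1 did not (adjusted p = 0.0373 and 0.0507). At 55 min limma called none of the 10, and only 6 of all genes tested. At that period 7 of the 10 and 1025 of all genes had an unadjusted p under 0.05.

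**Figure D2:**
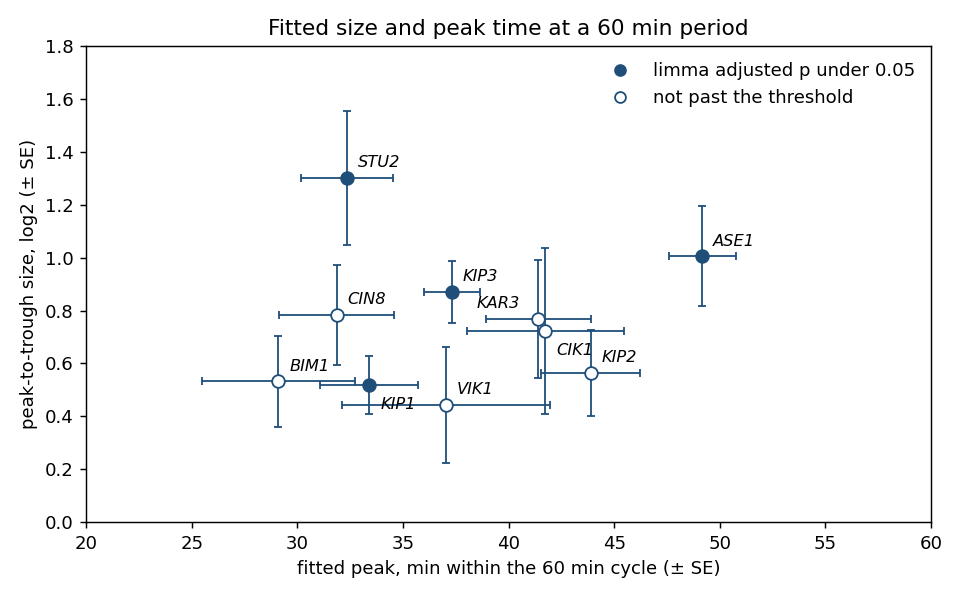
Fitted peak time within the 60 min cycle (horizontal axis, min) and fitted peak-to-trough size (vertical axis, log2) of the 10 genes, with bars of 1 SE in both directions. Filled points passed limma's adjusted threshold and open points did not: STU2 has the largest size, 1.30 log2, and ASE1 the latest peak, at 49.2 min.

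CIN8 and KIP1 encode the BimC-type motors, which overlap in function and drive spindle poles apart. CIN8 had ratios of -0.81, -0.23, 0.34, 0.43, 0.48, -0.16, 0.06, -0.48, 0.09, 0.48, 0.28, -0.03 and 0.13 log2 from 0 to 120 min. It was thus lowest in the arrested sample and reached nearly the same height at 40 and at 90 min. Its fitted size was 0.78 ± 0.19 log2, with a peak at 31.9 ± 2.7 min, and did not pass (limma adjusted p = 0.0622). CIN8 passed without the 60 min array (adjusted p = 0.0482), without the 120 min array (0.032) and with quantile-normalized arrays (0.0487).

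KIP1 had ratios of -0.01, -0.19, 0.31, 0.40, 0.23, 0.01, 0.12, -0.16, 0.14, 0.51, 0.26, 0.16 and -0.20 log2. Its highs at 30 and 90 min were separated by a low at 70 min, and unlike CIN8 it was near 0 in the arrested sample. The fitted size was 0.52 ± 0.11 log2, a 1.43-fold range, with a peak at 33.4 ± 2.3 min (limma adjusted p = 0.0354). The call was lost when the array at 20, 30, 40, 50, 70, 80, 90, 100 or 120 min was left out (adjusted p = 0.0551 to 0.0942) and within set B alone (0.145). The periodic courses of the motor genes CIN8 and KIP1 did not differ detectably, with a rhythm of 0.28 log2 in CIN8 minus KIP1 (permutation test, 100000 shuffles within sets, adjusted p = 0.979 over 4 planned pairs).

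KIP3 and KIP2 encode motors that act at plus ends: Kip3 shortens microtubules, while Kip2 stabilises cytoplasmic microtubules and carries other proteins to their tips. KIP3 had ratios of -0.27, -0.68, 0.04, 0.36, 0.36, 0.03, -0.32, -0.59, -0.14, 0.23, 0.21, -0.03 and -0.22 log2. The lows at 10 and 70 min and the highs at 30 to 40 and 90 to 100 min lay a cycle apart. KIP3 had the smallest adjusted p of the 10 genes, with a size of 0.87 ± 0.12 log2 (1.83-fold) and a peak at 37.3 ± 1.3 min (limma adjusted p = 0.00411). It was the only one of the 4 called genes that stayed called whichever array was left out (adjusted p = 0.00316 to 0.0207), and when only set B was fitted it passed (0.00892), but not at a period of 55 min (0.0756).

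KIP2 had ratios of -0.42, -0.73, -0.48 and -0.04 log2 from 0 to 30 min, then 0.47, 0.65, 0.41, 0.20, -0.21, 0.29, 0.35, 0.31 and 0.12 from 40 to 120 min. All 4 arrays of set A lay below 0 and 8 of the 9 of set B above it, and the fit gave set A minus set B as -0.53 log2. That difference was 0.75 log2 in KAR3, -0.64 in STU2, -0.42 in ASE1 and 0.38 in CIK1. In the remaining genes it lay between -0.17 and 0.14 log2. The fitted size of KIP2 was 0.56 ± 0.16 log2 with a peak at 43.9 ± 2.3 min, and it did not pass (limma adjusted p = 0.125). The difference KIP2 minus KIP3 had a rhythm of 0.56 log2, which did not pass either (permutation test, adjusted p = 0.235 over the 4 pairs).

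KAR3, the minus-end-directed motor, and CIK1, which encodes a partner that Kar3 needs in mating and in the spindle, were both highest in the arrested sample. KAR3 had ratios of 1.18, 0.02, 0.77, 0.93, 0.55, 0.17, 0.06, -0.30, -0.19, 0.64, 0.32, 0.24 and 0.13 log2. CIK1 had ratios of 1.45, -0.12, 0.25, 0.67, 0.72, 0.64, 0.15, 0.05, 0.39, 0.71, 0.70, 0.10 and -0.06 log2. Both therefore dropped within 10 min of release and came back in each cycle, KAR3 at 30 and 90 min and CIK1 at 40 and at 90 to 100 min.

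With the arrested sample in the fit, neither gene was called periodic (limma, KAR3 0.77 ± 0.22 log2, adjusted p = 0.125; CIK1 0.72 ± 0.31 log2, adjusted p = 0.338). Without the 0 min array both passed, CIK1 with a size of 0.80 log2 and a peak at 34.9 min (adjusted p = 0.00808) and KAR3 with 0.77 log2 and a peak at 38.0 min (adjusted p = 0.0406). When only set B was fitted, CIK1 passed as well (adjusted p = 0.0374), and KAR3 did not (0.0933). With quantile-normalized arrays KAR3 passed with the 0 min array kept (adjusted p = 0.0411).

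VIK1 encodes the other partner of Kar3, which is known from vegetative cells and places the motor at the spindle poles. Its ratios were -0.43, -0.59, 0.36, 0.51, 0.31, 0.20, 0.40, -0.10, 0.07, 0.06, 0.35, 0.25 and 0.30 log2. It was low at 0 and 10 min, where CIK1 was high and then near 0, and from 20 min on it stayed between -0.10 and 0.51. The fitted size of 0.44 ± 0.22 log2 did not pass (limma adjusted p = 0.411). Over 60 min, the rhythm of CIK1 minus VIK1 (0.39 log2) and that of KAR3 minus CIK1 (0.05 log2) did not pass (permutation test, adjusted p = 0.979 for each over the 4 pairs).

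**Figure D3:**
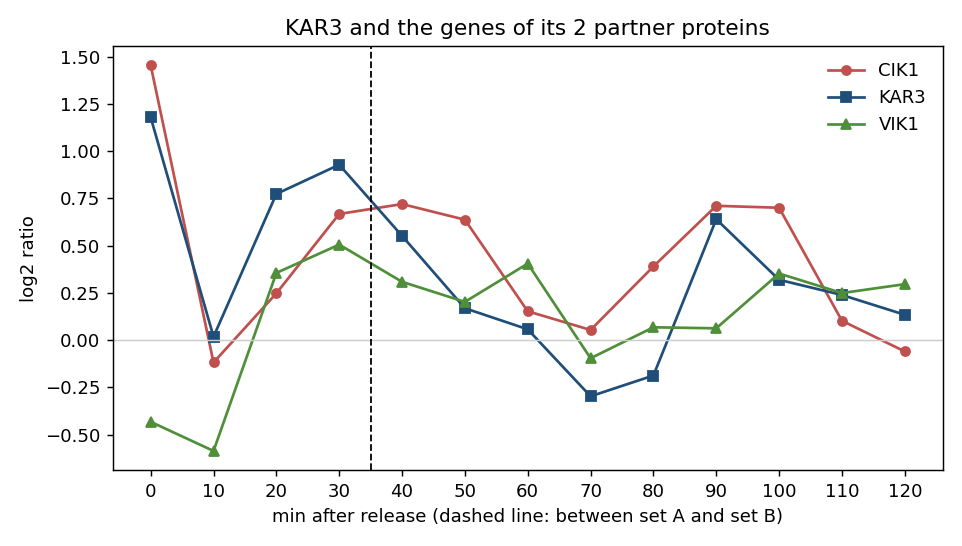
Log2 ratio (vertical axis) against min after release (horizontal axis) for KAR3, CIK1 and VIK1, 1 array per point, with a dashed line between set A and set B. At 0 min CIK1 and KAR3 stand at 1.45 and 1.18 log2 and VIK1 at -0.43, and all 3 are above 0 from 20 to 60 min.

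STU2 encodes a microtubule polymerase that binds plus ends and is needed for a working spindle, and it had the largest range of the 10 genes over all 13 arrays, 2.31 log2, against 1.47 log2 from 10 to 120 min, where that of ASE1 was larger. Its ratios were -1.57, -0.74, 0.16, 0.62, 0.58, 0.19, -0.55, -0.07, 0.26, 0.69, 0.73, 0.48 and 0.29 log2. The highs of the cycles, 0.62 at 30 min and 0.73 at 100 min, were alike, whereas the low at 60 min was shallower than that at 0 min. The fitted size was 1.30 ± 0.25 log2 (2.46-fold), with a peak at 32.3 ± 2.2 min (limma adjusted p = 0.0247). Without the 0 min array the size was 1.07 log2, and that of ASE1 1.05 log2. Within set B alone it was 0.90 log2, and that of ASE1 1.01 log2. The call was lost without the 30 min array (adjusted p = 0.0949), the 60 min array (0.0602) or the 70 min array (0.0608), within set B alone (0.0764) and at 55 min (0.168).

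BIM1 encodes the plus-end tracking protein of the end-binding family, which links microtubules to the spindle positioning protein Kar9. Its ratios were 0.00, 0.07, 0.22, 0.23, -0.13, -0.16, -0.84, -0.07, 0.24, 0.35, 0.21, 0.09 and -0.15 log2. Apart from the 60 min array it stayed between -0.16 and 0.35. The 60 min value minus the mean of 50 and 70 min was -0.72 log2 in BIM1 and -0.60 in STU2. Over all genes the middle 95% of this difference ran from -0.58 to 0.61 log2, so both genes lay just below that range, and a part of the single array in these values was not tested. The fitted size of BIM1, 0.53 ± 0.17 log2, did not pass (limma adjusted p = 0.175), and without the 60 min array it was 0.36 log2 (adjusted p = 0.181).

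ASE1 encodes the protein that bundles antiparallel microtubules in the midzone of the anaphase spindle, and it had the latest fitted peak of the 10. Its ratios were -0.27, -0.77, -1.06, -0.29, 0.50, 0.71, 0.20, -0.12, -0.59, -0.23, 0.01, 0.23 and 0.47 log2. Its lows, at 20 and 80 min, each came 10 min after those of KIP3, and its highs, at 50 and 120 min, 10 and 30 min after. ASE1 was still rising at 120 min, the last array, so its second high may lie later and the 30 min is not a measured lag between peaks. The fitted size was 1.01 ± 0.19 log2 (2.01-fold), with a peak at 49.2 ± 1.6 min (limma adjusted p = 0.0229). For timing, the histone gene HTA1, a marker of S phase, peaked at 31.0 ± 1.4 min in the same fit, and the mitotic cyclin gene CLB2, which did not pass (adjusted p = 0.0946), at 45.8 ± 2.1 min. The ASE1 call was lost without the 50 min (adjusted p = 0.061), 80 min (0.123) or 90 min array (0.0502) and at 55 min (0.241), and it held within set B alone (0.0335).

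The courses of ASE1 and the other called genes were set against each other on the same arrays, in 3 pairs chosen because of their values, so no test is given. The fitted 60 min rhythm of the difference was 1.17 log2 for ASE1 minus KIP1, 1.10 for ASE1 minus KIP3 and 1.79 for ASE1 minus STU2. Within set B alone it was 1.24, 1.16 and 1.40 log2. All 3 differences were lowest at 20 min, from -1.37 to -1.09 log2.

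**Figure D4:**
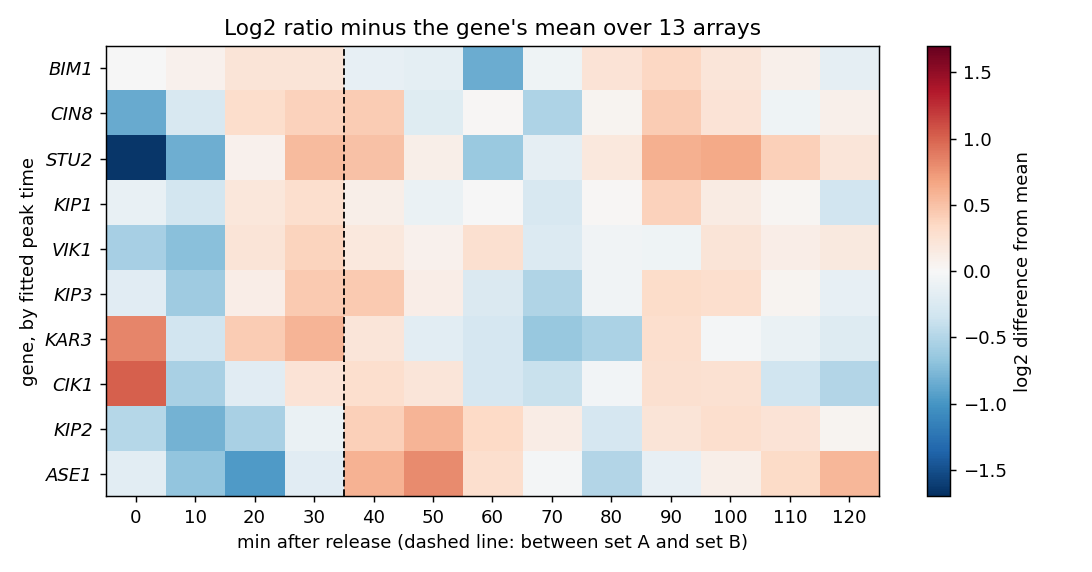
Log2 ratio minus each gene's mean over the 13 arrays, by min after release (columns) and gene (rows, ordered from the earliest to the latest fitted peak), with red above and blue below the mean and a dashed line between set A and set B. Most cells of the upper rows are red at 20 to 40 min and at 90 to 100 min. Exceptions include BIM1 at 40 min, VIK1 at 90 min and CIK1 at 20 min, which lie below their means. In KIP2 and ASE1 the first red blocks come at 40 to 60 min, and both are blue at 20 min.

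The arrested sample was examined on its own by adding an indicator of the 0 min array to the periodic fit. The indicator fits that single array exactly, so the error comes from the other arrays. It assumes that the 0 min array varies as they do, which cannot be checked without a replicate. CIK1 stood 2.91-fold above its curve at 0 min (1.54 ± 0.20 log2, limma adjusted p = 0.00124 over 6153 genes). It was the only 1 of the 10 genes called higher, where 3.14% of all genes were. CIK1 was called in all 20 alternatives run for this deviation, among them leaving out any 1 of the other arrays (adjusted p = 0.000513 to 0.00478). At 0 min its ratio was 1.45 log2, against 0.15 at 60 min and -0.06 at 120 min, 1 and 2 nominal cycles later. CIK1 and KAR3 are known as genes that mating pheromone induces. The pheromone-induced gene FUS1 stood 3.92 ± 0.44 log2 above its own curve at 0 min. The direction of the ratios was itself read from FUS1, so the sign of that value was set by this choice. A part of pheromone in the CIK1 value was not tested.

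KAR3 lay above its curve by 0.79 ± 0.26 log2 and did not pass (limma adjusted p = 0.115). It passed without the array set in the fit (1.24 log2, adjusted p = 0.0364) and at a period of 65 min (1.02 log2, 0.0245). Its ratio was 1.18 log2 at 0 min, against 0.06 at 60 min and 0.13 at 120 min.

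No gene among the 10 was called lower at 0 min by limma, where 2.08% of all genes were. At an unadjusted p under 0.05, 2 of the 10 were lower, against 537 of all 6153 genes. The 2 were STU2, at -1.12 ± 0.31 log2 (adjusted p = 0.062), and CIN8, at -0.70 ± 0.27 log2 (adjusted p = 0.175). STU2 passed without the 10 min (adjusted p = 0.0292), 60 min (0.0286) or 120 min array (0.0447) and without the array set (0.0188). VIK1, at -0.52 ± 0.33 log2 (adjusted p = 0.458), passed without the 10 min array (-1.04 log2, 0.0124). The remaining genes deviated by -0.16 to 0.26 log2.

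The deviations of paired genes at 0 min are set side by side as a description with no test, since this comparison was added after the values were seen and rests on 1 array. CIK1 minus VIK1, the genes of the alternative partners of Kar3, was 2.06 ± 0.35 log2, of which the deviation of CIK1 itself makes up 1.54. CIN8 minus KIP1 was -0.81 ± 0.25 log2, KAR3 minus CIK1 -0.76 ± 0.31 log2 and KIP2 minus KIP3 -0.25 ± 0.25 log2. Without the array set in the fit, KAR3 minus CIK1 was -0.19 log2.

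**Figure D5:**
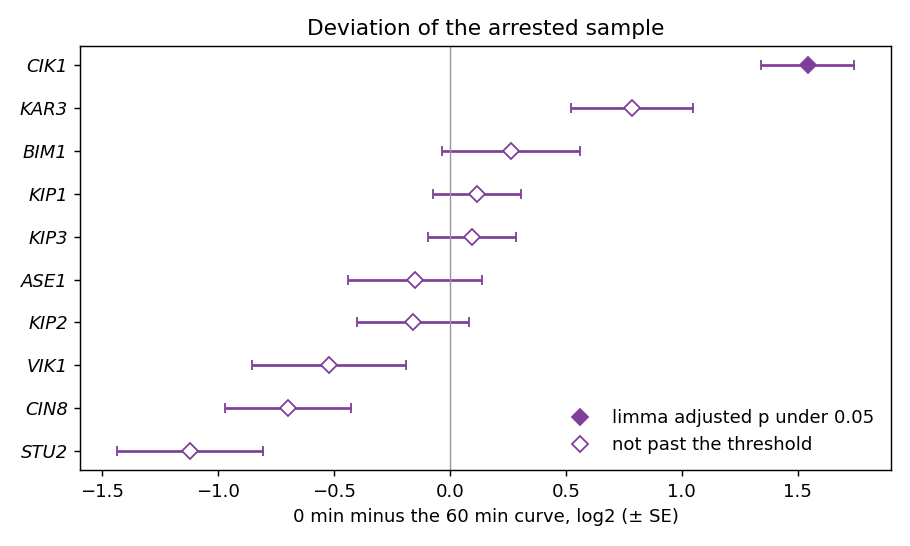
Deviation of the 0 min array from the 60 min curve (horizontal axis, log2) for each gene (rows), with bars of 1 SE, filled where limma's adjusted p was under 0.05. CIK1, at 1.54 log2, is the only filled point, with KAR3 next at 0.79 and STU2 farthest below 0 at -1.12.

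Among 35 measured genes of 36 in lists of other microtubule proteins, 8 were called periodic, where 5.47% of all genes were, and 15 had an unadjusted p under 0.05, where 21.2% of all genes had. Their median size was 0.30 log2, against 0.25 log2 over all genes. At 0 min 1 of the 35 was called higher and 2 lower, where 3.14% and 2.08% of all genes were. The tubulin genes had the largest median size of these lists, 0.88 log2. All 4 had an unadjusted p under 0.05 and 1 was called: TUB1, for alpha-tubulin, with 0.99 ± 0.20 log2 and a peak at 38.2 ± 2.0 min (limma adjusted p = 0.0302). The gamma-tubulin gene TUB4 followed with 0.96 ± 0.24 log2 at 18.8 ± 2.1 min (adjusted p = 0.0745). TUB2, for beta-tubulin, had 0.80 ± 0.19 log2 (adjusted p = 0.057), and TUB3, for the other alpha-tubulin, 0.66 log2 (adjusted p = 0.126). At 0 min all 4 lay below their curves at an unadjusted p under 0.05, as did 537 of all 6153 genes. TUB1 and TUB4 were called lower, by -0.90 ± 0.21 and -1.004 ± 0.228 log2 (adjusted p = 0.0256 for each).

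Of 13 dynein and dynactin genes 4 were called, although the median size was only 0.15 log2. PAC11, for the dynein intermediate chain, had 1.14 ± 0.15 log2 at 27.1 ± 1.5 min (limma adjusted p = 0.00411), and SHE1, for a microtubule-associated inhibitor of dynein, 0.92 ± 0.19 log2 at 29.1 ± 2.2 min (adjusted p = 0.0292). NDL1, for a dynein-targeting protein, had 0.78 ± 0.16 log2 and its peak at 58.7 ± 2.3 min (adjusted p = 0.0315), and DYN3, for a dynein light intermediate chain, 0.55 ± 0.11 log2 at 39.4 ± 1.8 min (adjusted p = 0.0243). No gene of this list was called at 0 min by limma. At an unadjusted p under 0.05, 1 lay above and 1 below the curve, against 640 and 537 of all 6153 genes.

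Of 11 further spindle and plus-end genes 3 were called. SLK19, for a kinetochore and midzone protein, had 0.998 ± 0.179 log2 at 25.1 ± 1.8 min (limma adjusted p = 0.0182), KAR9, for the partner of Bim1 in spindle positioning, 0.58 ± 0.13 log2 at 33.4 ± 2.5 min (adjusted p = 0.0469), and MHP1, for a microtubule-associated protein, 0.50 ± 0.09 log2 at 26.6 ± 2.0 min (adjusted p = 0.0229). None of the 7 tubulin folding genes was called periodic by limma, with 2 at an unadjusted p under 0.05; the largest sizes were those of CIN2 (0.54 ± 0.18 log2, adjusted p = 0.203) and PAC2 (0.47 ± 0.26 log2, adjusted p = 0.497). CIN1, of that list, was higher at 0 min by 1.23 ± 0.26 log2 (adjusted p = 0.0204).

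Among themselves the 10 genes correlated in part, as a description over 13 arrays that share a reference and the step between sets. Of 45 pairs, 8 had a Pearson r of 0.7 or more and 10 were below 0. The shares among pairs of all genes were not counted, so these counts have nothing to be judged against. The closest pair was KIP2 and ASE1 (r = 0.86), followed by KIP1 and KIP3 (0.82) and CIN8 and STU2 (0.82). KAR3 and CIK1 had r = 0.73, and 0.56 over the 12 arrays without 0 min. The pair CIK1 and VIK1 had r = -0.08, and 0.46 without 0 min. ASE1 and BIM1 were the most opposed (r = -0.50). The 20 genes adjacent to the 10 on their chromosomes overlapped none of them in the RefSeq gene table and had r from -0.73 to 0.73 with their neighbour.

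The genes most like each of the 10 over the 13 arrays, 3 for each, had r from 0.82 to 0.98, and none was itself among the 10. ASE1 was closest to FRK1 (0.98), SRC1 (0.96) and YML033W (0.96). KIP2 was closest to CDC5 (0.95), AUR1 (0.95) and CLB2 (0.95), of which CDC5 encodes the polo kinase of mitosis. STU2 was closest to WHI3 (0.98), SRL1 (0.97) and YOR248W (0.96). YML033W and YOR248W are given by ID alone, and whether each is a gene of its own was not checked. KIP3 was closest to CLB4 (0.93), a B-type cyclin gene, ULS1 (0.93) and PDP3 (0.92), and CIN8 to SET1 (0.93), SRS2 (0.92) and VID22 (0.90). KIP1 was closest to TGL5 (0.86), EXG2 (0.84) and GDA1 (0.82), and BIM1 to WBP1 (0.90), RNQ1 (0.89) and CEX1 (0.88). KAR3 was closest to TIM18 (0.86), TAF13 (0.82) and LYP1 (0.82), CIK1 to BSC1 (0.90), RTS2 (0.89) and RPC17 (0.88), and VIK1 to ADE57 (0.91), LCB3 (0.89) and MLH3 (0.88). With each gene centred within its array set, 12 of these 30 stayed among the closest 3, none of them for KIP2, KAR3 or BIM1.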

How the data were processed

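Per the labels, Cy5-labelled RNA of each of 13 time points was hybridised with Cy3-labelled RNA of an asynchronous culture, 1 array each. The authors deposited 1 log10 ratio for each feature on each array. Its base was read from the values, which end at 2 and -2. How arrays were scanned, background-corrected and normalized was not given in the sources used here. Values were multiplied by 3.32 to give log2, and 272 values within 0.01 of the limit, none in the 10 genes, were treated as missing. Of 6205 open reading frames, 6183 with values on at least 11 arrays were tested.

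Limma 3.58.1 in R 4.3.3 fitted a cosine and sine of 60 min beside the array set; the 0 min deviation is the coefficient of an indicator added to that fit. Pair differences were tested by shuffling arrays within sets (Python 3.11.15, NumPy 2.4.6), which treats time points as exchangeable. The fits and the shuffling test were tested on simulated data. The simulated pair rhythm was larger than that of any planned pair, so detection of rhythms as small as those was not tested. Names come from the RefSeq gene table of R64, and no coordinates or sequences are printed because no build or sequence was given. The 502 open reading frames absent from that table were kept under their ID. The 10 genes are all named, with the called and the 2 largest genes of each other list and the 3 genes most alike. The genes, lists and tests were chosen with earlier results of these data known. Alternatives were the period, the array set, linear time, quantile normalization, values at the limit, the filter, robust shrinkage, set B alone and leaving out each array.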

Additional observations from a re-analysis of the deposited data

How the results depend on the processing

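No paired analysis was possible because each time point has 1 array. Genes called periodic numbered 338, but 546 with quantile-normalized arrays, 6 at a 55 min period (1025 at an unadjusted p under 0.05) and 143 to 381 with 1 array left out; of the 10 genes 4 were called, but by limma 0 at 55 min (7 at an unadjusted p under 0.05) and 2 to 6 with 1 array left out. Genes called higher at 0 min numbered 193, but 121 with linear time, 49 with quantile normalization, 301 at 65 min and 137 to 217 with 1 array left out. Genes called lower numbered 128, but 82 without the array set, 42 with quantile normalization, 251 at 65 min and 75 to 165 with 1 array left out. Of the 10 genes 1 was higher, but 2 without the array set and at 65 min; 0 were lower by limma (2 at an unadjusted p under 0.05), but 1 without the array set and 0 to 2 with 1 array left out. Deviations at 0 min that changed sign were small and none was called: KIP3 was -0.056 log2 with quantile normalization, -0.20 at 55 min and -0.12 without the 10 min array (-0.12 to 0.16 over the arrays left out), KIP1 -0.10 at 55 min and -0.0018 without the 10 min array (-0.0018 to 0.18), and at 65 min KIP2 was 0.0070 and ASE1 0.071. The cause of these changes was not tested. The 4 planned pair differences in periodic course passed under none of the 19 alternatives run. Of the 30 most alike genes 12 were shared after centring within sets. With 1 array per time point, rhythms of small size could be missed, and signal over background is not known.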

Other observations

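The period that left the smallest residual, among whole-minute periods between 40 and 90 min, differed among the 10 genes and is given as a description. It was 60 min for KIP1, 61 min for KIP3 and 62 min for KIP2, and 67 min for both CIN8 and ASE1 and 69 min for STU2. KIP3 was described about equally well at 61 and at 60 min, with 88.1% of the variance within array sets explained at each. For STU2 the share was 83.5% at 69 min and 69.4% at 60 min, and for ASE1 86.2% at 67 min and 73.0% at 60 min. KAR3 (57 min) and CIK1 (50 min) lay below 60 min, and VIK1 (74 min) and BIM1 (75 min) above it.

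The level 60 min later was not always the same, and the sign of the difference changed along the course. ASE1 was higher at 70 than at 10 min by 0.65 log2 and KIP2 by 0.92 log2, pairs of arrays of different sets. Within set B the differences ran the other way: ASE1 at 100 minus 40 min was -0.49 log2 and at 110 minus 50 min -0.48 log2, and KIP2 at 110 minus 50 min was -0.34 log2 and at 120 minus 60 min -0.29 log2. At 120 minus 60 min ASE1 was 0.27 log2. STU2 was 1.03 log2 at 60 minus 0 min, 0.67 at 70 minus 10 min, 0.07 to 0.30 at the 4 pairs that start at 20 to 50 min, and 0.84 at 120 minus 60 min. KIP3 kept all 7 differences between -0.18 and 0.10 log2. KAR3 was -1.12 log2 at 60 minus 0 min, -0.32 at 70 minus 10 min, -0.96 at 80 minus 20 min and -0.29 at 90 minus 30 min, and from -0.23 to 0.08 within set B. CIK1 was -1.30 log2 at 60 minus 0 min and between -0.53 and 0.17 at the other 6 pairs. Without replicates these differences have no test.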
